A study of Homo sapiens with 12 samples.

Results

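The transcripts of 9 genes for secreted proteins were followed in triple-negative breast cancer cells with and without PACT, a double-stranded RNA binding protein encoded by PRKRA. They are INHBE, GDF15, FGF21, ADM2, STC2, VEGFA, INHBA, INHBB and FST, 9 of the 57500 genes in the deposited count table, and were taken by gene symbol; each symbol stood on 1 identifier. They were chosen by a rule of named symbols, drawn up with the fold changes after depletion in these same libraries known. Their levels and fold changes after depletion are therefore a description, given with the call each gene received in a model of all genes but without a p-value. Their levels in the control libraries of one line against the other were not used to list them and were tested.

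Cells that sense amino acid shortage, misfolded protein or double-stranded RNA phosphorylate the translation factor eIF2alpha, and translation of the transcription factor ATF4 then rises; this is the integrated stress response. Besides genes that act inside the cell, ATF4 and its partners are known to induce hormones that leave it, among them FGF21 and GDF15, which act on metabolism and appetite. INHBA, INHBB and INHBE encode beta subunits of the inhibin and activin family: pairs of beta subunits form activins, which signal through serine/threonine kinase receptors and SMAD proteins, and follistatin, encoded by FST, binds activins and blocks them. ADM2 is a peptide of the calcitonin family, STC2 a secreted glycoprotein, and VEGFA the main growth factor for blood vessels.

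The study comprised 12 RNA-seq libraries in 4 groups of 3. HCC1806 and MDA-MB-468 are established lines from triple-negative breast cancers, which lack estrogen and progesterone receptors and HER2 amplification. Controls carried the guide sgC1 (HCC1806) or sgNTA (MDA-MB-468), and PACT was depleted by CRISPR-Cas9 with the guide sgPACT-2 in either line. No other treatment is named in the labels, and they do not say whether the edited cells were clones or pools. The control guides differ between the lines, so line and guide cannot be told apart in any comparison between them. Nothing says that the 3 replicates of a group were separate cultures, so p-values measure only the spread between these samples, which may be technical.

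HCC1806 libraries held between 18640633 and 24704877 counts, MDA-MB-468 libraries between 34581754 and 44790741. Levels are given in counts-per-million (CPM) after TMM scaling, with mean ± SD over 3 libraries. A gene counts as changed when its Benjamini-Hochberg adjusted p from edgeR's quasi-likelihood test was under 0.05 over the 27029 genes tested. PRKRA measured 78.6, 82.6 and 72.1 CPM in HCC1806 controls and 37.5, 36.1 and 37.3 after depletion; in MDA-MB-468 it measured 41.1, 45.9 and 46.9 against 39.2, 35.5 and 41.6, which overlapped, so PACT depletion in that line rests on the labels. Among epithelial markers EGFR was the highest, at 1113 and 8273 CPM in the HCC1806 and MDA-MB-468 control groups. The lowest was KRT17 in HCC1806 (19.5 CPM) and TP63 in MDA-MB-468 (0.620 CPM, beside 248.4 in HCC1806). ESR1 (20.9 and 6.67 CPM) and ERBB2 (194.2 and 139.8 CPM) transcripts were detected nonetheless, and PGR stayed at or under 0.160 CPM. Of 9 epithelial markers 3 fell and 0 rose in HCC1806 by edgeR (5 lower and 1 higher at an unadjusted p under 0.05; 3 and 1 by DESeq2; 4 and 1 in a blocked fit, with the replicate number as a term): EPCAM, CDH1 and KRT5 (log2 fold changes of -0.55, -0.38 and -0.92; adjusted p = 0.0335, 0.0373 and 0.0106, edgeR); their part in the results below was not tested. KRT17, a basal keratin, measured 19.5 ± 2.20 CPM in controls and 27.8 ± 3.17 after depletion (0.51, adjusted p = 0.0809). EPCAM and CDH1 each passed in 2 of the 12 fits without 1 library and KRT5 in 11. In the model of all 12 libraries, and by DESeq2, no tested fibroblast, endothelial or leukocyte marker passed in either line. With the replicate block, or without depleted replicate 1, 1 fibroblast marker passed higher in HCC1806, and with MDA-MB-468 alone 1 leukocyte marker passed lower there; an unadjusted p under 0.05 was found for 1 fibroblast and 1 leukocyte marker in HCC1806 and 1 leukocyte marker in MDA-MB-468. Summed, the fibroblast markers were at 34.7 and 46.4 CPM in HCC1806 (nearly all COL1A1) and 19.8 and 18.6 CPM in MDA-MB-468, control and depleted. Among the HCC1806 libraries, depleted replicates 1 and 3 stood apart at opposite ends (-36.3 and 31.7) of the leading principal component, which held 42.9% of the variance, and the arms parted on the next (30%). Over all genes 672 passed in HCC1806, 1708 without depleted replicate 1, 436 without depleted replicate 3 and 282 without control replicate 1. Without either depleted library 4 of the 9 genes passed, as with all 12 libraries; without replicate 3, VEGFA stood in place of FGF21. In a bulk sample, fewer cells with a transcript and less transcript per cell cannot be told apart.

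Promoter windows from RefSeq (GRCh38.p14, 250 bases before to 50 after the start) were matched for 7 of the 9 genes, INHBE and VEGFA not among them. Stretches with no annotated exon are shown for FGF21, ADM2 and INHBB, a gene with few reads and 2 that moved in opposite directions in HCC1806. The windows are 5′ to 3′ on the gene's strand. Capitals mark a match to TGATGNAA, the core of the C/EBP-ATF response element that ATF4 binds with its partners, here on the opposite strand.
FGF21 (chr19:48755391-48755523, plus strand, GRCh38.p14): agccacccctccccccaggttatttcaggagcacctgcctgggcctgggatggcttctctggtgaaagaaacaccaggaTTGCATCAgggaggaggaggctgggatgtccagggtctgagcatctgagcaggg
ADM2 (chr22:50481293-50481542, plus strand, GRCh38.p14): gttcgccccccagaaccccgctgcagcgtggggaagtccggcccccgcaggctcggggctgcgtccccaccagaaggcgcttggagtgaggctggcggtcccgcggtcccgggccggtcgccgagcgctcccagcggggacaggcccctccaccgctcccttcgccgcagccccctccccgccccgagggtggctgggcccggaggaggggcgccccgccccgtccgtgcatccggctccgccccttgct
INHBB (chr2:120345886-120346135, plus strand, GRCh38.p14): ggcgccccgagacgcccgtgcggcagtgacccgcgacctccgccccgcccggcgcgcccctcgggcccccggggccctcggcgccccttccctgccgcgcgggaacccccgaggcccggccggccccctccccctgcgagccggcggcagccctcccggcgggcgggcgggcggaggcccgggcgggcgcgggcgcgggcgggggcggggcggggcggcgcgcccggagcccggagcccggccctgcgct
The FGF21 stretch is the whole gap between the divergent gene FUT1 and the RefSeq start of FGF21. Its match, TTGCATCA, begins 54 bases before that start. Searched on both strands of the 300-base windows, TGATGNAA occurred in 1 of the 7 promoters, that of FGF21, and in 3.62% of all 35116 promoters. ACGTG, the core of the hypoxia response element, occurred in 0 of 7 and in 21.4% of all. The ER stress response element occurred in 0 of 7 and in 0.0769% of all. These counts say only which letters lie in the windows. The stretch before FGF21 had 60.2% G and C and 0 CpG dinucleotides in 133 bases; those before ADM2 and INHBB had 78.8% and 89.6% G and C, with 29 and 46 CpG in 250 bases each.

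In the main model, which has no replicate term, INHBE was the one gene of the 9 that passed in both lines, higher in each. INHBE (ENSG00000139269, GENCODE 29, GRCh38, chromosome 12, 57452323 to 57459280, plus strand) encodes the inhibin beta E subunit, made chiefly in liver. In HCC1806 it measured 1.33, 1.34 and 1.91 CPM in controls and 7.15, 8.49 and 12.2 CPM after depletion, 1.53 ± 0.328 against 9.28 ± 2.61 (SD, n = 3 each). In MDA-MB-468 it measured 1.20, 1.40 and 1.12 against 9.52, 7.67 and 7.54 CPM, 1.24 ± 0.143 against 8.24 ± 1.11. Every depleted library lay above every control library of either line. The model gave log2 fold changes of 2.60 (SE 0.24), or 6.08-fold, and 2.73 (SE 0.24), or 6.65-fold. The difference between the lines was 0.13 (SE 0.34) on the log2 scale and did not pass. By replicate number, depleted over control was 5.36, 6.33 and 6.39 in HCC1806 and 7.95, 5.48 and 6.71 in MDA-MB-468. The calls in both lines held in each of 19 alternative fits, with log2 fold changes from 2.36 to 2.80 and from 2.62 to 2.82.

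**Figure D1:**
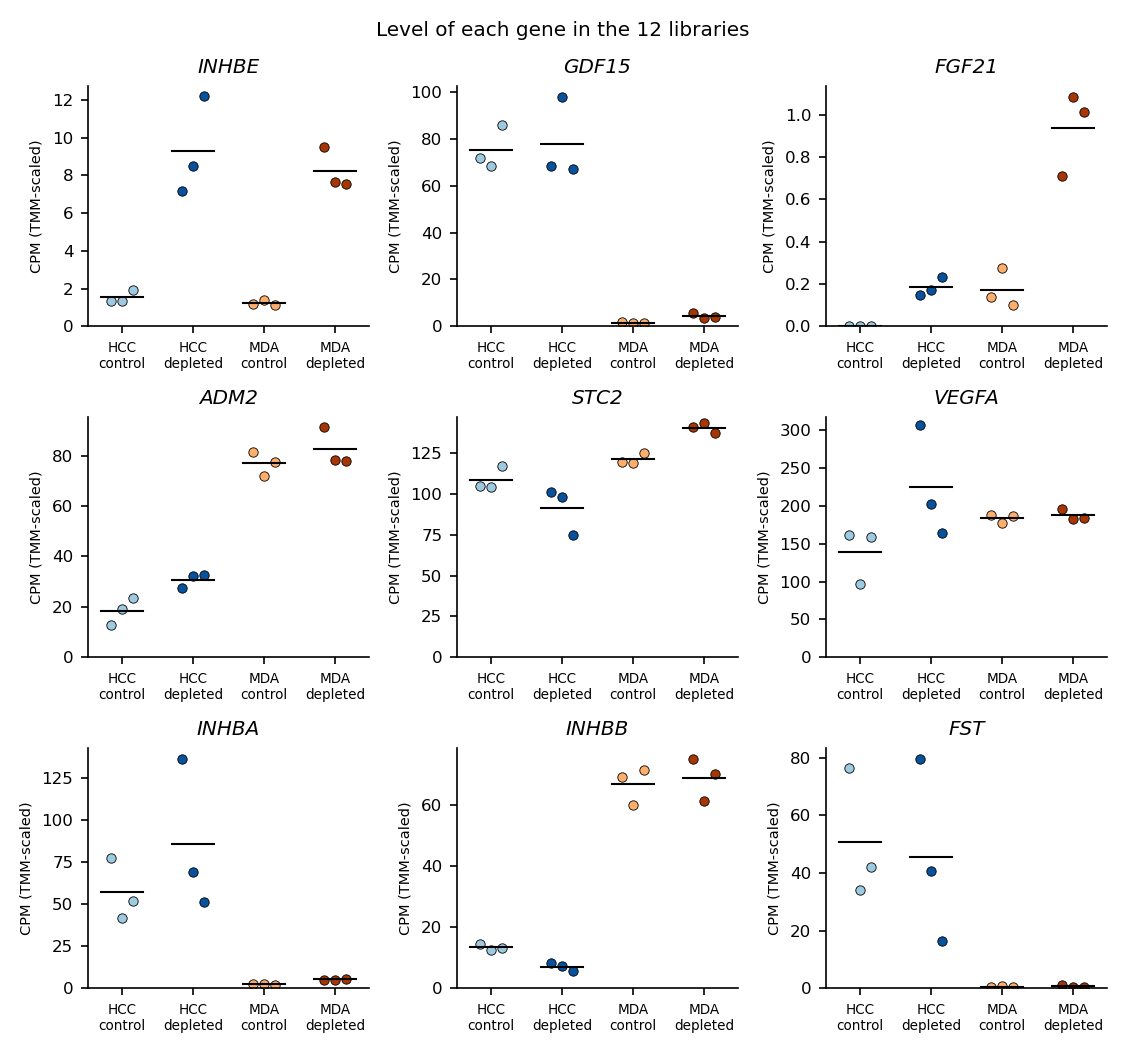
Level of each of the 9 genes in CPM (linear axis from 0, TMM-scaled) in the 12 libraries; each point is 1 library, in replicate order, and each line the mean of 3, with HCC1806 (HCC) in blue and MDA-MB-468 (MDA) in orange, pale for control and dark for PACT-depleted. INHBE is near 1.53 and 1.24 CPM in the control groups and near 9.28 and 8.24 CPM after depletion, while GDF15, INHBA and FST are high in HCC1806 only and ADM2 and INHBB are higher in MDA-MB-468.

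GDF15 rose in MDA-MB-468 from a very low level and did not pass in HCC1806, where it was already abundant. GDF15 (ENSG00000130513, chromosome 19, 18374731 to 18389176, plus strand) encodes a distant member of the TGF-beta family that signals to the brainstem through GFRAL. In MDA-MB-468 it measured 1.92, 1.28 and 1.30 CPM in controls and 5.53, 3.67 and 4.12 CPM after depletion, 1.50 ± 0.367 against 4.44 ± 0.970. The groups did not overlap, and the log2 fold change was 1.57 (SE 0.22), or 2.96-fold; the ratios by replicate number were 2.88, 2.87 and 3.18. In HCC1806 the controls measured 71.8, 68.3 and 85.8 CPM and the depleted libraries 68.4, 97.8 and 67.3 CPM, 75.3 ± 9.27 against 77.8 ± 17.3. These overlapped, with a log2 fold change of 0.05 (SE 0.16); its sign turned to -0.02 without control replicate 2 and to -0.15 without depleted replicate 2. Even after depletion, GDF15 in MDA-MB-468 stayed far under its HCC1806 level. The difference between the lines, 1.52 (SE 0.27) on the log2 scale, passed the threshold. It passed in 4 of the 12 fits without 1 library. It no longer passed without HCC1806 control replicates 1, 2 or 3 (1.55, 1.58 and 1.41), MDA-MB-468 depleted replicates 1, 2 or 3 (1.33, 1.64 and 1.57) or MDA-MB-468 control replicates 2 or 3 (1.42 and 1.42). GDF15 contains the microRNA gene MIR3189, which shares no exon base with it.

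FGF21 was at the edge of detection. FGF21 (ENSG00000105550, chromosome 19, 48755559 to 48758333, plus strand) encodes a hormone of fasting and stress that acts through FGFR1 and the co-receptor KLB. HCC1806 controls held 0, 0 and 0 counts and depleted libraries 3, 4 and 7, which is 0 against 0.147, 0.173 and 0.234 CPM. MDA-MB-468 controls held 5, 9 and 4 counts and depleted libraries 25, 36 and 33, which is 0.139, 0.274 and 0.0998 against 0.713, 1.08 and 1.02 CPM. In each line every depleted library exceeded every control library. In HCC1806 the model called FGF21 higher; against a floor of 3 counts per library, which covers counting error only, it was at least 1.43-fold higher. That call held in 6 of 17 alternative fits with a value, and in 2 of the 12 with 1 library removed, those without HCC1806 depleted replicate 1 or MDA-MB-468 control replicate 2. In MDA-MB-468 the log2 fold change of 2.44 (SE 0.58), or 5.44-fold, did not pass; it passed with that line fitted alone (2.47, SE 0.57). FGF21 reached the filter on low counts through the MDA-MB-468 depleted libraries alone, so a call of it in that line is not counted as a result.

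INHBA passed in neither line in the main model, with positive values in both. INHBA (ENSG00000122641, chromosome 7, 41667168 to 41705834, minus strand) encodes the subunit of activin A. In MDA-MB-468 it measured 2.59, 2.28 and 2.22 CPM in controls and 5.07, 5.20 and 5.78 CPM after depletion. The groups did not overlap, and the log2 fold change of 1.18 (SE 0.32), or 2.26-fold, did not pass in the model of both lines. Among the alternatives in which it passed were those without HCC1806 depleted replicate 1 (1.18, SE 0.21), with MDA-MB-468 alone (1.19, SE 0.20) and with no filter on low counts (1.18, SE 0.16). In HCC1806 the controls measured 77.7, 42.0 and 51.9 CPM and the depleted libraries 136.3, 69.2 and 51.3 CPM, 57.2 ± 18.4 against 85.6 ± 44.8. Replicate 1 was highest in both arms and the ranges overlapped; the log2 fold change of 0.58 (SE 0.26) did not pass, and passed with the replicate block (0.51, SE 0.13) and with no filter (0.58, SE 0.13). INHBA-AS1 lies across INHBA on the other strand and shares no exon base with it.

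INHBB was the one gene of the 9 that fell. INHBB (ENSG00000163083, chromosome 2, 120346143 to 120351808, plus strand) encodes the subunit of activin B and inhibin B. In HCC1806 it measured 14.4, 12.5 and 13.2 CPM in controls and 8.28, 7.19 and 5.71 CPM after depletion, 13.4 ± 0.940 against 7.06 ± 1.29, with no overlap. The log2 fold change was -0.93 (SE 0.14), or 0.525-fold. This call was kept in all 12 fits without 1 library and was lost with HCC1806 fitted alone (-0.91, SE 0.18). In MDA-MB-468 the values were 69.2, 60.0 and 71.5 against 75.2, 61.1 and 70.1 CPM, which overlapped, with a log2 fold change of 0.04 (SE 0.13). The difference between the lines, 0.97 (SE 0.19), did not pass. It passed with DESeq2 (0.98), library size only (0.90), no filter (0.97), a mean of at least 50 counts (0.95), the replicate block (0.98) and without HCC1806 depleted replicate 1 (1.10).

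Per kilobase of exon, the beta subunits made up a different mixture in each group. The length used was the union of all annotated exons, which can exceed that of the transcript expressed. It was 8302 bases for INHBA, 3204 for INHBB and 3015 for INHBE, and the shares depend on it. Of the summed INHBA, INHBB and INHBE transcripts per kb, INHBA took 58.7% ± 6.08, INHBB 36.8% ± 5.08 and INHBE 4.52% ± 1.34 in HCC1806 controls (SD, n = 3). After depletion INHBA took 63.5% ± 12.7, INHBB 14.6% ± 2.35 and INHBE 21.9% ± 11.3. The INHBE share ranged from 11.1% to 33.7% there, against 3.10% to 5.75% in controls. In MDA-MB-468 controls INHBB took 96.7% ± 0.509, INHBE 1.93% ± 0.402 and INHBA 1.33% ± 0.139. After depletion INHBB took 86.4% ± 0.779, INHBE 11.0% ± 0.899 and INHBA 2.61% ± 0.320. So INHBE stayed the smaller share beside the leading subunit of each line, INHBA in HCC1806 and INHBB in MDA-MB-468. The sum was 11.6 ± 2.48 CPM per kb in HCC1806 controls and 15.6 ± 5.06 after depletion, and 21.6 ± 1.86 and 24.9 ± 2.49 in MDA-MB-468. These shares were chosen after values had been seen and were not tested.

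**Figure D2:**
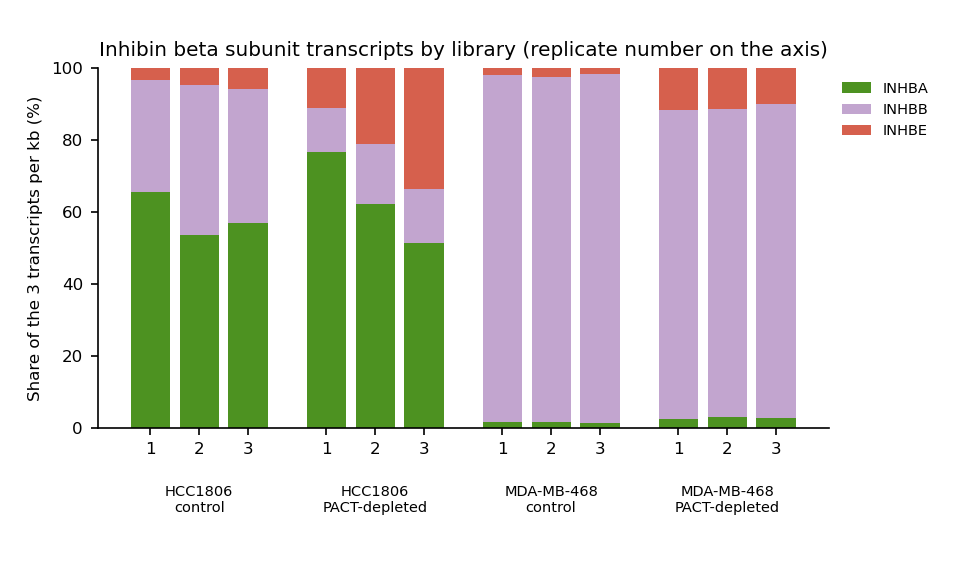
Share of INHBA (green), INHBB (lilac) and INHBE (red) in their summed CPM per kb of exon, in percent from 0 to 100, 1 stacked bar per library with its replicate number. The INHBE share goes from 4.52% to 21.9% on average in HCC1806, where it differs between the depleted replicates, and from 1.93% to 11.0% in MDA-MB-468.

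FST, the activin antagonist, varied more between replicates than between arms. FST (ENSG00000134363, chromosome 5, 53480409 to 53487134, plus strand) measured 76.5, 34.1 and 42.1 CPM in HCC1806 controls and 79.4, 40.7 and 16.5 CPM after depletion. The log2 fold change was -0.17 (SE 0.38), and its sign turned without control replicate 1 (0.25) or depleted replicate 3 (0.24). In MDA-MB-468 it measured 0.334, 0.730 and 0.399 against 0.998, 0.541 and 0.461 CPM, a log2 fold change of 0.48 (SE 0.75). Neither passed. The ratio of FST to INHBA per kb was 2.43 ± 0.282 in HCC1806 controls (2.27 to 2.75) and 1.39 ± 0.428 after depletion (0.897 to 1.65), which did not overlap; this ratio, too, was chosen after values had been seen. In MDA-MB-468 it was 0.586 ± 0.277 and 0.355 ± 0.172.

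ADM2 rose in HCC1806. ADM2 (ENSG00000128165, chromosome 22, 50481556 to 50486440, plus strand) encodes adrenomedullin 2, or intermedin, a vasodilator peptide that uses CALCRL with RAMP proteins. In HCC1806 it measured 13.0, 19.0 and 23.3 CPM in controls and 27.6, 32.2 and 32.6 CPM after depletion, 18.4 ± 5.21 against 30.8 ± 2.74, with no overlap. The log2 fold change was 0.74 (SE 0.16), or 1.67-fold. The ratios by replicate number were 2.13, 1.70 and 1.40. The call was lost without HCC1806 control replicate 1 (0.54), control replicate 2 (0.76) or depleted replicate 2 (0.71), and with HCC1806 alone (0.75, SE 0.20). In MDA-MB-468 ADM2 measured 81.4, 71.9 and 77.6 against 91.4, 78.2 and 77.8 CPM, which overlapped, a log2 fold change of 0.10 (SE 0.15). The difference between the lines, -0.64 (SE 0.22), did not pass; with the replicate block it passed (-0.67, SE 0.15).

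STC2 and VEGFA were abundant in every library and passed in neither line in the main model. STC2 (ENSG00000113739, chromosome 5, 173314713 to 173329503, minus strand) measured 104.8, 104.3 and 116.9 CPM in HCC1806 controls and 101.4, 98.5 and 74.7 CPM after depletion, a log2 fold change of -0.25 (SE 0.11). In MDA-MB-468 it measured 119.6, 118.8 and 125.1 against 141.1, 143.7 and 137.1 CPM, a log2 fold change of 0.21 (SE 0.11). The depleted libraries were all lower in HCC1806 and all higher in MDA-MB-468. The lines differed by 0.46 (SE 0.16) on the log2 scale, which did not pass. VEGFA (ENSG00000112715, chromosome 6, 43770184 to 43786487, plus strand) measured 161.1, 97.2 and 158.5 CPM in HCC1806 controls and 307.0, 203.2 and 164.6 CPM after depletion. The groups did not overlap, though depleted replicate 3 lay close to the controls; the ratios by replicate number were 1.91, 2.09 and 1.04. The log2 fold change of 0.69 (SE 0.19), or 1.62-fold, did not pass. It passed without depleted replicate 3 (0.88), with the replicate block (0.68), DESeq2 (0.69), library size only (0.81), no filter (0.69) and a mean of at least 50 counts (0.72). In MDA-MB-468 VEGFA measured 187.4, 177.7 and 186.1 against 195.7, 183.1 and 184.0 CPM, a log2 fold change of 0.03 (SE 0.19). AL136131.3, on the strand opposite VEGFA, shares 188 exon bases with it and had 0 counts in every library.

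**Figure D3:**
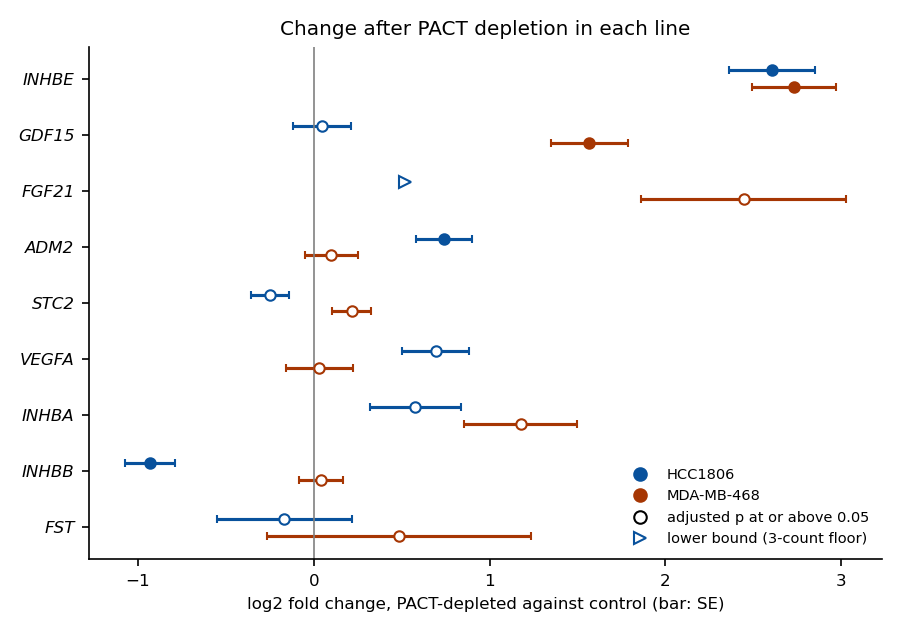
Log2 fold change of each gene, PACT-depleted against control (x axis), in HCC1806 (blue) and MDA-MB-468 (orange). Bars are the SE derived from the quasi-likelihood test. Filled circles passed the threshold of 0.05, open circles did not, and the open triangle is the lower bound for FGF21 in HCC1806, which passed. INHBE stands at 2.60 and 2.73 in the 2 lines, and INHBB in HCC1806 is the one value past the threshold on the negative side.

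Counted together, 4 of the 9 genes passed in HCC1806, 3 higher (INHBE, FGF21, ADM2) and 1 lower (INHBB). Of all genes tested, 2.49% passed there, 1.16% higher and 1.32% lower; since the 9 were listed with these results known, nothing is read from their share. Passing genes numbered 6 with the replicate block, which added INHBA and VEGFA. They numbered 2 without HCC1806 control replicate 1, control replicate 2 or depleted replicate 2, and 1 (INHBE) with HCC1806 alone. In MDA-MB-468, 2 passed higher (INHBE, GDF15) and 0 lower, where 0.17% of all genes passed higher and none of 27029 lower (edgeR; 550 lower at an unadjusted p under 0.05, and 12 by DESeq2). All 9 log2 fold changes, that of FGF21 included, were positive in that line, beside 44.7% of all genes tested. Those of VEGFA, INHBB, ADM2 and FST were smaller than their SE, and VEGFA and INHBB turned sign when 1 library was left out. With the line fitted alone 4 passed, FGF21 and INHBA added. FGF21 reached the filter on low counts only through the depleted libraries of that line. Neither this call nor its separate ranges there are counted as a result. The ranges of the 3 control and 3 depleted libraries did not overlap for 6 genes in HCC1806 (4 higher, 2 lower). In MDA-MB-468 they did not overlap for 5, all higher, among them FGF21, which is not counted as a result. Among all genes this held for 8.51% higher and 8.17% lower in HCC1806, and for 6.2% higher and 6.94% lower in MDA-MB-468. The median log2 fold change of the 9, FGF21 included, was 0.58 in HCC1806 (0.52 with FGF21 at its lower bound) and 0.48 in MDA-MB-468. Over all genes tested it was 0.01 and -0.01. The difference between the lines passed for 1 gene, GDF15, on the positive side, where 0.0222% of all genes passed (0.122% on either side).

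Before any depletion the lines expressed different hormones, and 6 of the 9 genes differed between the control libraries, 3 higher and 3 lower in MDA-MB-468. Of all genes 74.2% differed, 34.2% higher and 40.1% lower, so the share of the 9 is near the background. Relative to HCC1806, GDF15 was lower in MDA-MB-468, at -5.65 on the log2 scale (SE 0.22, adjusted p = 2.91e-13, edgeR). FST stood at -6.72 (SE 0.56, adjusted p = 7.45e-09) and INHBA at -4.60 (SE 0.32, adjusted p = 6.96e-10). INHBB was higher by 2.32 (SE 0.14, adjusted p = 6.18e-11) and ADM2 by 2.06 (SE 0.16, adjusted p = 2.92e-09). FGF21 was at least 1.33-fold higher against the floor of 3 counts (adjusted p = 0.00164). The 3 libraries of one line lay wholly on one side of the other line's for each of these 6, and for STC2 and VEGFA too. Among all genes this held for 77.7%, so it does not set the 6 apart. INHBE (-0.30, SE 0.26, adjusted p = 0.301), STC2 (0.16, SE 0.11, adjusted p = 0.205) and VEGFA (0.40, SE 0.19, adjusted p = 0.0655) did not pass. The median log2 difference over all genes was -0.26, and library size only moved it to -0.51, so values are relative to it; STC2 then turned to -0.09, and to -0.16 with a mean of at least 50 counts. VEGFA passed with the replicate block (0.43), with no filter (0.42) and without HCC1806 control replicate 1 (0.52) or 3 (0.51) or depleted replicate 1 (0.40) or 3 (0.42). INHBE passed with a mean of at least 50 counts (-0.62).

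Per kilobase of exon, GDF15 led in HCC1806 controls at 36.1 ± 4.44 CPM per kb, above STC2 (17.7 ± 1.17), FST (17.1 ± 7.59), VEGFA (9.63 ± 2.51), INHBA (6.89 ± 2.22), ADM2 (4.31 ± 1.22), INHBB (4.17 ± 0.294), INHBE (0.507 ± 0.109) and FGF21 at 0. The ranges of 3 libraries overlapped there between STC2 and FST, VEGFA and INHBA, INHBA and ADM2, and ADM2 and INHBB. In MDA-MB-468 controls INHBB (20.9 ± 1.90), STC2 (19.8 ± 0.558) and ADM2 (18.0 ± 1.12) led, in overlapping ranges for INHBB beside each of the others, followed by VEGFA (12.7 ± 0.365). GDF15 (0.718 ± 0.176), INHBE (0.411 ± 0.0474), INHBA (0.285 ± 0.0239), FST (0.164 ± 0.0715) and FGF21 (0.130 ± 0.0693) were all under 1, and the last 2 overlapped. After depletion INHBE was 7th of 9 in HCC1806 (3.08 ± 0.864), in a range of 2.37 to 4.04 that overlapped that of INHBB, the 8th (1.78 to 2.58), and 5th in MDA-MB-468 (2.73 ± 0.368), above GDF15 (2.13 ± 0.465), whose range overlapped with it. The order of the genes depends on the length used, the union of annotated exons, which was 14431 bases for VEGFA and 2087 for GDF15. By CPM alone VEGFA had the highest mean in both control groups, 138.9 in HCC1806 and 183.7 in MDA-MB-468. Replicates spread more widely in HCC1806: the median coefficient of variation of the genes detected was 23.8% and 24.1% in its control and depleted groups, against 9.11% and 10.3% in MDA-MB-468.

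**Figure D4:**
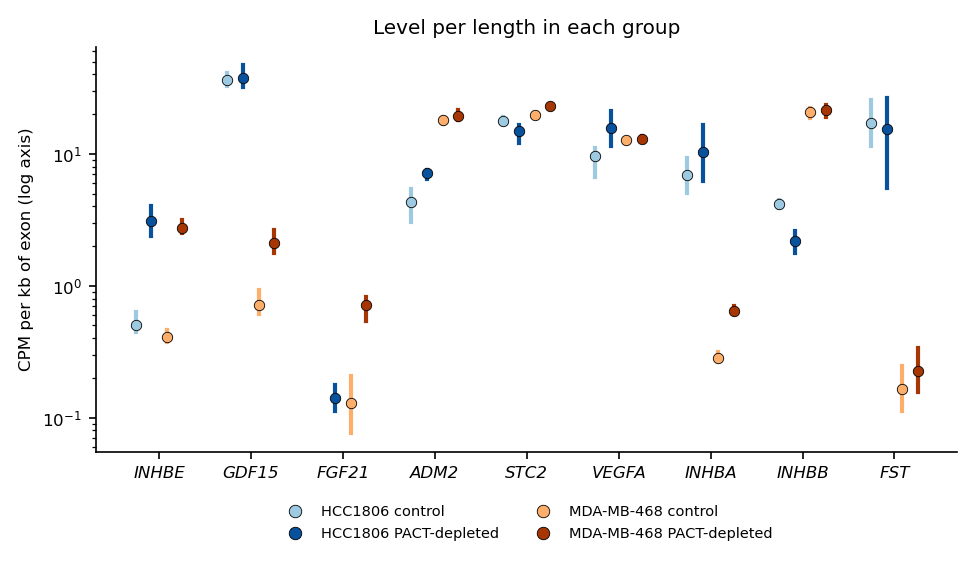
Level of each gene in CPM per kb of exon (log axis) in the 4 groups; points are means and bars the range of 3 libraries, and FGF21 in HCC1806 controls, at 0, is not drawn. GDF15 leads in HCC1806 at 36.1 in controls but is at 0.718 in MDA-MB-468 controls, while INHBE is near 3.08 and 2.73 in both depleted groups.

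Across the 12 libraries, with the mean of each line subtracted from log2 CPM, INHBE and FGF21 had r = 0.97, INHBE and GDF15 r = 0.68, INHBE and ADM2 r = 0.68, and INHBE and INHBA r = 0.66. INHBB ran opposite to ADM2 (r = -0.79) and with STC2 (r = 0.72). These describe 12 libraries that share their groups and carry no test. The r with FGF21 rests on 0 to 36 counts per library, in log2 CPM with a prior count of 2. That gene reached the filter on low counts only through the MDA-MB-468 depleted libraries, so its r is not counted as a result. Of 18378 genes, those most like INHBE were IKBKE (r = 0.975), PPP1R15A (0.972), NR1D1 (0.968), RASSF9 (0.965) and the antisense gene AC107959.3 (0.962), the last uncertain because the counting may not separate strands. PPP1R15A encodes GADD34, the subunit that directs a phosphatase to eIF2alpha, and IKBKE a kinase of innate immune signalling. Those most like GDF15 were AC092296.2 (0.961), PROSER2 (0.950), HOXB9 (0.902), PVT1 (0.890) and FIBIN (0.889). Without subtracting the mean of each line, 1 of the 5 for INHBE and 2 of the 5 for GDF15 remained.

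Genes of the ATF4 pathway include ATF4 itself, its partners and genes they are known to induce. This list and the other gene lists were drawn up with earlier results of these data known. Their counts, shares and p-values are therefore a description and not an independent test. In HCC1806, 8 of 12 rose and 0 fell by edgeR (10 higher and 0 lower at an unadjusted p under 0.05; 9 higher and 0 lower by DESeq2), beside 1.16% higher and 1.32% lower of all genes tested. Of the 12, 11 had a positive log2 fold change (91.7%, beside 50.9% of all genes), with a median of 0.91. ATF3, a stress-induced transcription factor, rose from 7.57 ± 1.25 to 44.4 ± 4.71 CPM (2.55, SE 0.14, adjusted p = 3.19e-08). CHAC1, which degrades glutathione, rose from 5.01 ± 2.35 to 20.2 ± 1.66 CPM (2.01, SE 0.22, adjusted p = 5.78e-05). PPP1R15A (1.37), SESN2 (1.21), ASNS (1.03), TRIB3 (1.02), DDIT3 (0.80) and CEBPB (0.55) also rose. CEBPB no longer passed without HCC1806 control replicate 1 or 3 or depleted replicate 2, nor with HCC1806 alone (0.49 to 0.68 over all alternatives), where DDIT3 was lost too. In MDA-MB-468, 2 of 12 rose, ATF3 (1.63, SE 0.13, adjusted p = 7.89e-06) and PPP1R15A (1.20, SE 0.12, adjusted p = 0.000139), beside 0.17% of all genes. There 7 were higher and 0 lower at an unadjusted p under 0.05, 6 and 0 passed by DESeq2, and 8 and 0 with the line alone. In that line 11 of 12 log2 fold changes were positive (44.7% over all genes), with a median of 0.43. The ATF4 transcript measured 137.0 and 135.0 CPM in HCC1806 and 787.1 and 754.0 CPM in MDA-MB-468, control and depleted, and passed in neither.

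The ER chaperones and folding factors are targets of the other branches of the unfolded protein response. In HCC1806, 1 of 8 rose (DNAJB9, 0.50, adjusted p = 0.0453) and 1 fell (HSP90B1, -0.47, adjusted p = 0.0327), kept in 2 and 4 of the 12 fits without 1 library, respectively. There 2 were higher and 3 lower at an unadjusted p under 0.05, and 1 and 3 passed by DESeq2 and with the replicate block; the median was -0.19. In MDA-MB-468, 0 of 8 passed by edgeR over all 12 libraries or by DESeq2, and 1 had an unadjusted p under 0.05. With that line fitted alone 1 passed higher and 0 lower.

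Receptors and co-receptors for ligands among the 9 genes, with none listed for STC2 or FST, mostly had negative log2 fold changes in HCC1806. Of the 18 tested 2 were positive (11.1%, beside 50.9% of all genes tested), with a median of -0.24. By edgeR 2 fell and 0 rose (4 lower and 0 higher at an unadjusted p under 0.05; 3 and 0 by DESeq2; 4 and 0 with the replicate block). TGFBR3, or betaglycan, an inhibin co-receptor, fell from 58.7 ± 4.87 to 32.8 ± 0.775 CPM (-0.84, SE 0.16, adjusted p = 0.00889). NRP2, a co-receptor for VEGF proteins, fell from 83.2 ± 13.5 to 50.2 ± 6.34 CPM (-0.73, SE 0.13, adjusted p = 0.00681), a call lost with HCC1806 alone. FGFR4 (-0.57, adjusted p = 0.0871), ACVR1C (-0.52, 0.299) and FGFR3 (-0.38, 0.566) did not pass. In MDA-MB-468, 0 of 18 passed by edgeR or DESeq2 and 0 had an unadjusted p under 0.05, with a median of 0.06. GFRAL, the receptor of GDF15, and RAMP3 had 0 counts in all 12 libraries, where a floor of 3 counts is 0.0748 to 0.147 CPM.

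Of the close relatives of the 9 genes, 11 of 14 were tested. In HCC1806, CALCA, which encodes calcitonin and CGRP, held 0, 0 and 2 counts in controls and 19, 20 and 17 after depletion, at least 6.12-fold higher against the floor. It held 0 counts in every MDA-MB-468 library and reached the filter on low counts through the HCC1806 depleted libraries alone, so its call there is not counted as a result. It was the one relative called by edgeR; that call was lost without HCC1806 control replicate 1 or 2 or depleted replicate 2, and with HCC1806 alone, and DESeq2 called 0. INHBC, which lies beside INHBE and encodes the beta C subunit, was at 0.230 and 0.292 CPM in HCC1806 and 0.286 and 0.160 CPM in MDA-MB-468, control and depleted, and passed in neither; it was picked out for its place. In MDA-MB-468, 0 of 11 passed by edgeR or DESeq2, and 0 had an unadjusted p under 0.05.

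Of 8 activin-binding proteins and SMADs, 0 passed in HCC1806 by edgeR (2 higher and 1 lower at an unadjusted p under 0.05; 1 and 1 by DESeq2; 2 and 1 with the replicate block). The largest log2 fold changes there were BAMBI, a decoy receptor (0.78, adjusted p = 0.0567), SMAD7, an inhibitory SMAD (0.69, 0.152), and FSTL1 (-0.51, 0.0607). In MDA-MB-468, 0 passed by edgeR or DESeq2 and 1 had an unadjusted p under 0.05. Between the control libraries all 8 differed, beside 74.2% of all genes. SMAD4, the shared partner of activin-regulated SMADs, measured 27.0 CPM in HCC1806 and 2.17 CPM in MDA-MB-468, a line known for a deletion of SMAD4, and FSTL1 measured 366.6 and 3.38 CPM; both were picked out after their values were seen.

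The hypoxia-inducible genes, of which VEGFA is a classical example, had mostly negative values in HCC1806, with 3 of 12 positive and a median of -0.38. By edgeR 1 fell and 0 rose (6 lower and 0 higher at an unadjusted p under 0.05; 2 and 0 by DESeq2; 6 and 0 with the replicate block). SLC2A1, the glucose transporter GLUT1, fell from 562.2 ± 67.7 to 363.4 ± 74.2 CPM (-0.63, SE 0.13, adjusted p = 0.0148), and did not pass without HCC1806 control replicate 1 or with HCC1806 alone (-0.78 to -0.48 over all alternatives). EGLN3 (-0.62, 0.0562), CA9 (-0.59, 0.345) and ENO1 (-0.44, 0.178) did not pass at the adjusted p given. In MDA-MB-468, 0 passed by edgeR over all 12 libraries or by DESeq2, 3 had an unadjusted p under 0.05, and the median was -0.04. With that line fitted alone 2 passed higher and 0 lower.

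**Figure D5:**
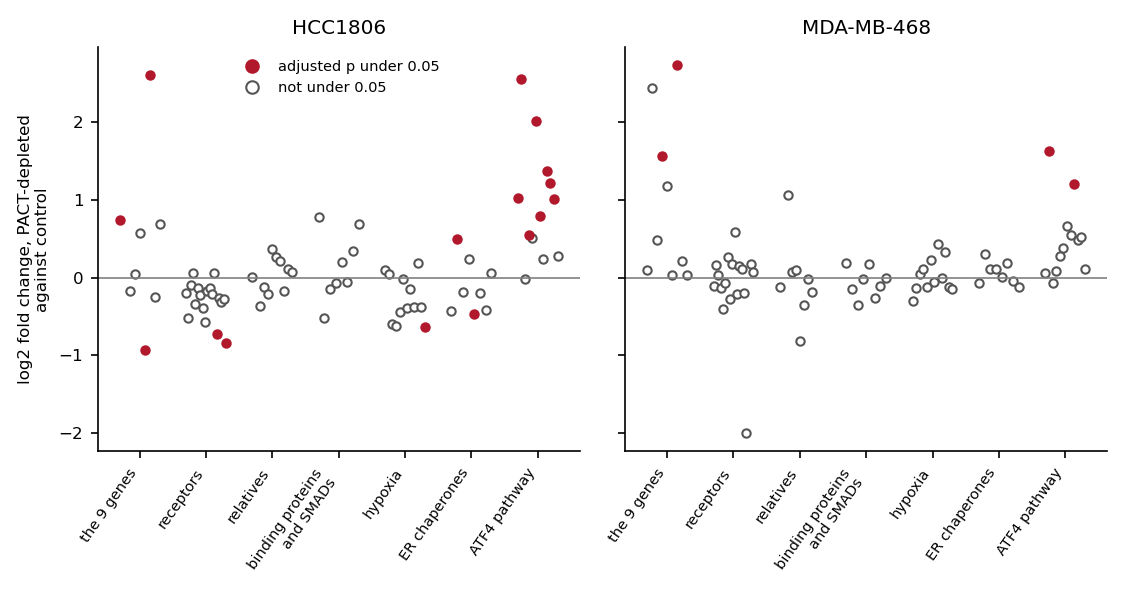
Log2 fold change of each gene, PACT-depleted against control (y axis), by gene list (x axis) in HCC1806 (left) and MDA-MB-468 (right); red points passed the threshold of 0.05, open points did not, and genes with a group at the floor of 3 counts in that line (FGF21 and CALCA in HCC1806 among them) are not drawn. In HCC1806 the ATF4 pathway points lie around a median of 0.91 and the receptor and hypoxia points around -0.24 and -0.38.

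Within 100 kb of the 9 genes, 51 other genes were tested; 2 rose and 0 fell in HCC1806, and 1 rose and 0 fell in MDA-MB-468, where 1.16% and 0.17% of all genes rose. Both HCC1806 calls were lost with that line alone. DDIT3, 57.3 kb from INHBE, rose in HCC1806 (0.80, SE 0.13, adjusted p = 0.00414) and had 0.66 in MDA-MB-468 (adjusted p = 0.0611). It encodes CHOP, a stress transcription factor on the ATF4 list. KLHDC7B, 59.5 kb from ADM2, rose in HCC1806 (2.10, SE 0.41, adjusted p = 0.0115) and had 1.64 in MDA-MB-468 (adjusted p = 0.0611). FUT1, a fucosyltransferase on the other strand beside FGF21, rose in MDA-MB-468 (0.83, SE 0.15, adjusted p = 0.0245, edgeR) and had 0.39 in HCC1806 (adjusted p = 0.21). Its start lies 169 bases from the GENCODE start of FGF21, and nearer to the RefSeq start used for the promoter window. FUT1 passed in 7 of the 12 fits without 1 library; it was lost without MDA-MB-468 control replicates 1, 2 or 3 or depleted replicates 1 or 3, with log2 fold changes from 0.76 to 0.93 over all alternatives. The nearest genes to INHBE, GLI1 and INHBC, passed in neither line. This window was chosen after the results were known.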

How the data were processed

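Total RNA, treated with DNase and depleted of rRNA, was made into libraries with NEBNext Ultra II RNA reagents and sequenced, per the labels. The submitters' processing notes name Trimmomatic 0.36, STAR 2.5.2b, featureCounts, Subread 1.5.2 and GRCh38. The deposited values are raw counts of reads per gene, made by the authors without normalization; the strand setting is not given in the sources used here. Rows without a gene name (485, with 0.0284% of counts) were left out. Coordinates and exon lengths are from GENCODE 29, with the length of a gene taken as the union of all its annotated exons.

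Genes passing filterByExpr on the 4 groups (27029 of 44375 with at least 1 count) were fitted with edgeR 4.0.16 in R 4.3.3: TMM, 1 quasi-likelihood model over 12 libraries, 1 coefficient per group, two-sided tests, Benjamini-Hochberg over all genes. Its biological coefficient of variation was 0.171, and 0.212 and 0.0969 with HCC1806 and MDA-MB-468 fitted alone. Log2 CPM used a prior count of 2. Each SE of an edgeR log2 fold change was derived from its test, as the absolute log2 fold change over the square root of the quasi-likelihood F. Groups whose 3 libraries had at most 3 counts each were taken to be at the floor. The members and gene lists were chosen with earlier results of these data known. All 9 members are named; of each list, the genes called after depletion and up to 3 with the largest change among the rest, at a mean CPM of at least 1; for likeness to INHBE and GDF15, the 5 highest Pearson r. Alternatives were DESeq2 1.42.0, RLE factors, library size only, 2 other filters, a replicate block, each line alone and leaving out each library. Same-numbered control and depleted libraries deviated together in HCC1806 (r = 0.479, 0.294 and 0.152), so the numbers were taken to pair them there, though control 2 correlated more with depleted 3 (r = 0.351).

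On simulated counts (26478 genes) the steps recovered 87.4% of genes changed by 1 on the log2 scale in each simulated line. Of those changed by 2 they recovered 99.1%. False calls made up 6.47% for HCC1806 and 4.08% for MDA-MB-468. These rates describe the simulated counts only. Whether they hold at the replicate spread of either real line was not tested. Nor was this tested for genes with few reads, such as FGF21, or FST in MDA-MB-468. Figures were drawn with Python 3.11.15 and matplotlib 3.10.9.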

Additional observations from a re-analysis of the deposited data

Results flagged for a closer look

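The effect of PACT depletion on GDF15 differed between the lines by 1.52 on the log2 scale (SE 0.27, MDA-MB-468 minus HCC1806), past the threshold in the model of all genes. GDF15 went from 1.50 ± 0.367 to 4.44 ± 0.970 CPM in MDA-MB-468 and from 75.3 ± 9.27 to 77.8 ± 17.3 CPM in HCC1806 (SD, n = 3 each). This difference passed in 4 of the 12 fits with 1 library removed.

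CHAC1, an ATF4 target for an enzyme that degrades glutathione, differed the other way, by -1.64 (SE 0.29, adjusted p = 0.0338, edgeR). It measured 3.17, 4.21 and 7.67 CPM in HCC1806 controls and 18.4, 20.8 and 21.6 CPM after depletion, against 21.8, 23.1 and 23.8 and 32.4, 27.6 and 29.3 CPM in MDA-MB-468. The MDA-MB-468 controls thus already lay above every depleted HCC1806 library. The difference passed in 3 of the 12 fits with 1 library removed, and ranged from -2.08 to -1.39 over 18 alternatives.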

How the results depend on the processing

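Of 660 recomputed member values, 597 kept their direction and their side of the threshold, 28 passed only in the alternative, 24 passed only in the main model and 11 changed sign. Members passing in HCC1806 numbered 4, against 1 with that line alone, and 2 to 4 without 1 library. In MDA-MB-468 they numbered 2, against 4 with that line alone (FGF21, whose call there is not counted as a result, among them), and 2 to 3 without 1 library. For the difference between the lines they numbered 1, against 2 with DESeq2, library size only or a mean of at least 50 counts, 3 with no filter or the replicate block, and 0 to 2 without 1 library. Between the controls they numbered 6, and 6 to 7 in every alternative. Leaving out 1 library turned the sign of the log2 fold change of FST (-0.84 to 0.25) and GDF15 (-0.15 to 0.15) in HCC1806, of VEGFA (-0.0014 to 0.0474) and INHBB (-0.0312 to 0.12) in MDA-MB-468, and of the INHBE difference between lines (-0.0622 to 0.38). STC2 between the controls turned to -0.0934 with library size only and -0.16 with the filter of 50 mean counts. In these cases the cause was not tested.

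With the replicate number as a block, 6 members passed in HCC1806, 3 in MDA-MB-468 (INHBA added, 1.18, SE 0.18), 3 for the difference between the lines and 7 between the controls. In MDA-MB-468 the same-numbered libraries had r = 0.116, 0.075 and 0.106, so the numbers were not taken to pair them; each sample there correlated best with its own number, a hint from the data only. Of the ATF4 list 6 of 12 rose there with the block, 6 with DESeq2, and 8 with that line alone. Over all genes, 672 passed in HCC1806 (314 higher, 358 lower), against 793 with library size only (647 higher, 146 lower; median log2 fold change 0.13), 81 with the line alone, 1245 with DESeq2, 1351 with no filter, 1947 with the block and 282 to 1708 without 1 library. In MDA-MB-468 46 passed, against 363 alone, 113 with DESeq2, 143 with no filter, 102 with the block and 19 to 96 without 1 library. Of the activin-binding list 3 rose and 1 fell in HCC1806 without depleted replicate 1. FGF21 had no adjusted p in DESeq2 in HCC1806 and was not tested with a mean of at least 50 counts. Its 0 to 36 counts per library set the limit of what can be said of it. Upstream bases alone held TGATGNAA in 3.14% of promoters.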
